A study of Mus musculus with 8 samples.

Results

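Solute carriers are membrane proteins that move small molecules across the plasma membrane and the membranes of organelles, and their genes are named *Slc*, a family number and a letter. They were followed here in dental pulp (DP), the soft tissue inside the tooth, with and without *Tgfbr2*, the type II receptor for transforming growth factor beta. A gene was taken as a member if its mouse protein-coding symbol had that form and its mean value over the libraries was at least 3 on the log2 scale. The members were thus chosen by their name and by the level measured in these same libraries, as a mean over both genotypes. Near the limit a difference between genotypes could decide. *Slc22a18* (mean of 2.71 in control, 3.56 in mutant libraries) and *Slc16a3* (2.99 and 4.35) passed only through the mutants, and *Slc35g2* (3.24 and 2.64) was left out only through them. *Slco* genes were not included. Of 199 such genes among the 12148 genes of the table, 172 passed this level, and they belong to 42 family numbers. The other 27 lay below it. The name is not always a function, since 4 members are called after a solute carrier without being one. *Slc9a3r1* and *Slc9a3r2* encode scaffold proteins, *Slc4a1ap* encodes an adaptor protein, and *Slc7a6os* is named after its place opposite *Slc7a6*, which leaves 168.

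Pulp was removed from mandibular first molars of C57BL/6J mice at postnatal day 7. Osterix-Cre control mice, which carry Cre recombinase under the Osterix promoter, gave 4 libraries (49 to 52), and *Tgfbr2cko* mice, which carry the same Cre together with floxed *Tgfbr2* (Osterix-Cre:Tgfbr2f/f), gave the other 4 (53 to 56). Left and right molars were combined. The paper states equivalent numbers of males and females for all its experiments, and the sex of single libraries is not given here. Osterix is active in the mesenchyme that gives rise to odontoblasts and osteoblasts, so other cells of the pulp, such as endothelial and immune cells, still carry the receptor.

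Between 8682872 and 13539670 reads per library fell on the genes of the table, and 1 read was worth between 0.0739 and 0.115 CPM, the unit of reads scaled to a common library total. On the log2 scale *Tgfbr2* itself reached 7.48 ± 0.22 (SD, n = 4) in control libraries, with 7.20 ± 0.28 (SD, n = 4) for the mutants, a difference that did not pass the limma test (adjusted p = 0.790), so its level does not by itself tell the genotypes apart. The library labelled Tgfbr2cko 56 had 7.61, inside the control range of 7.16 to 7.64, and the other mutants had 7.00 to 7.16. The same library stood apart in another way: its transcripts for enamel matrix proteins (*Amelx*, *Ambn*, *Enam*) summed to 191955 CPM, against between 3343 and 28661 CPM in the other libraries. Of the wider ameloblast and epithelium list, *Krt14*, *Krt5*, *Cdh1* and *Epcam* also had their highest value of the 8 in library 56, at 10.61, 9.96, 7.06 and 4.58. Other genes of the list did not follow. In library 56 *Mmp20*, *Odam* and *Amtn* had 10.06, 7.09 and 4.85, under the highest controls at 10.11, 7.25 and 6.38. *Klk4* was lower in every mutant library (log2 fold change -2.71, limma-trend adjusted p = 0.000136). Between the genotypes 5 of the list's 11 changes lay below 0, that of *Epcam* among them. The 6 odontoblast markers summed to between 47700 and 101786 CPM in control and between 29170 and 62875 CPM in mutant libraries, so odontoblast transcripts were abundant in every library. Of these markers 5 of 6 had a log2 change below 0 (median of the 6, -0.72), and *Bglap* (-0.72, limma-trend unadjusted p = 0.0226) and *Nes* (-0.81, unadjusted p = 0.00777) were altered; their part in the transporter values was not tested. No gene of the skeletal muscle and adipocyte lists is in the table.

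Pulp cells use these transporters for unlike tasks. Odontoblasts lay down a collagen matrix and mineralize it, for which they need phosphate and calcium, amino acids such as proline and glycine, sulfate and nucleotide sugars for proteoglycans, and the removal of acid that mineral formation releases. Mitochondrial carriers exchange nucleotides and metabolites between mitochondrion and cytosol, and glucose and lactate carriers serve glycolysis.

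At a change of at least 1.5-fold with an unadjusted p under 0.05 by limma's moderated test (two-sided, with a trend on intensity; limma-trend), called altered from here on, 10 of the 172 members were altered in *Tgfbr2cko* DP, which is 5.81% of them. Among all genes the share was 5.77%, so altered members were about as frequent as altered genes in general. Of the 10, 6 were higher in the mutants (3.49% of members, against 2.12% of all genes) and 4 were lower (2.33%, against 3.65%). The higher genes were *Slc16a3*, *Slc8a3*, *Slc7a2*, *Slc22a18*, *Slc2a1* and *Slc7a5*, and the lower genes were *Slc9a3r1*, *Slc6a6*, *Slc40a1* and *Slc38a11*. Among the higher genes *Slc22a18* and *Slc16a3* passed the level of 3 only through the mutants, with control means of 2.71 and 2.99, so the count of higher members partly rests on how members were chosen.

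After Benjamini-Hochberg adjustment over all 12148 genes, 3 members had a limma-trend adjusted p under 0.05, or 1.74%, where 0.947% of all genes did. These were *Slc7a2*, higher (higher genes were 0.247% of all genes), and *Slc6a6* and *Slc9a3r1*, lower (0.7% of all genes). None of the 3 kept an adjusted p under 0.05 in limma-trend when the control library 51 was left out. In that fit 18 members still had an unadjusted p under 0.05, and 11 were altered (6.40%, with 5.77% of all genes). Leaving out the mutant library 53 raised the count of altered members to 20 (11.6%, with 7.80% of all genes), and leaving out 54 raised it to 18 (10.5%, with 6.34% of all genes). An unadjusted p under 0.05 was reached by 21 members, 12.2% of them, against 8.38% of all genes, and 11 of the 21 were higher in the mutants and 10 lower, where 3.3% of all genes were higher and 5.08% lower. In 10 members the values of the genotypes did not overlap (5.81%, against 5.27% of all genes), with 3 higher and 7 lower in the mutants, where 2.13% and 3.14% of all genes were so. After quantile normalization 8 members were higher and 10 lower without overlap, and after median centring 7 and 11, of which 8 and 7 were among these 10. Changes were small in most members: the median log2 change was -0.0025, against -0.0053 over all genes, 129 of the 172 changed by less than 1.25-fold, and 85 changes lay above 0 and 87 below. Nothing states that the libraries came from separate animals, since the titles repeat a number within each genotype, so every p measures the spread between these libraries only. In bulk tissue, fewer cells of a type and less RNA per cell cannot be told apart.

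**Figure D1:**
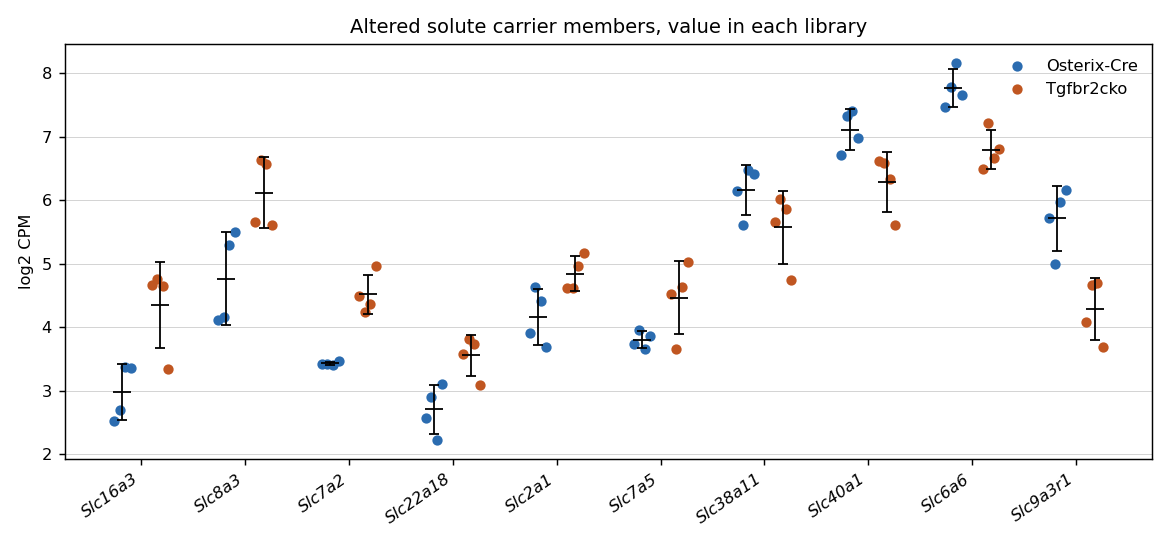
Log2 CPM of the 10 altered members in each library, with the 4 Osterix-Cre libraries in blue and the 4 *Tgfbr2cko* libraries in orange; black bars are the mean and SD. *Slc7a2* separates most cleanly, with controls between 3.40 and 3.47 and mutants between 4.25 and 4.96, while in *Slc16a3* the library labelled Tgfbr2cko 56, at 3.34, lies among the controls.

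Promoters are shown for 3 altered members as examples, chosen after the values and the motif matches were seen, as the 250 bases before the RefSeq gene start, all on the plus strand of GRCm38. The window of *Slc2a1* is printed to 236 bases, where 20 of its bases lie in an exon of the GENCODE annotation, which starts earlier than RefSeq. At *Slc16a3* 14 bases of the window lie in such an exon. GENCODE starts *Slc16a3* at 120948480, so the whole of its window, with both marked stretches, lies inside the gene as GENCODE places it. *Slc16a3* (lactate export) and *Slc2a1* (glucose uptake) were higher in the mutants, and *Slc9a3r1* (a scaffold) was lower. Capitals mark the letters ACGTG, the core of the element that hypoxia-inducible factors bind; TATAAA and TGATGNAA, the latter found in targets of the stress factor ATF4, were searched on both strands as well and were not present in these 3.
Slc16a3, chr11:120948817-120949066: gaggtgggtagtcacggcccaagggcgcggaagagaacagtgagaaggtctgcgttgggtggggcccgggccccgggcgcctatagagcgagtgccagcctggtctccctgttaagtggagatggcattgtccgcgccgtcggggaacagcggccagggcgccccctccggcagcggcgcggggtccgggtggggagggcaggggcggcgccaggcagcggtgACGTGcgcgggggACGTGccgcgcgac
Slc2a1, chr4:119108495-119108730: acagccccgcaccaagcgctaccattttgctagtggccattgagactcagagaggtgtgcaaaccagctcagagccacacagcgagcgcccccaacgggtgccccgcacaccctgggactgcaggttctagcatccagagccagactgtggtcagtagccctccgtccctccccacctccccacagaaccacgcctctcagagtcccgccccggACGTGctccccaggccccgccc
Slc9a3r1, chr11:115163091-115163340: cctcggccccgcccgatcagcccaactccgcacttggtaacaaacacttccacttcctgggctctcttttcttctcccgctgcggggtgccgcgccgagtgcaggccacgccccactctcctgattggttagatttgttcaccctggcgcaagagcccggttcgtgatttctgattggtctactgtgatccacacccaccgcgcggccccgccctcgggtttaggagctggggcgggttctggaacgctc

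The letters ACGTG occurred 2 times in the window of *Slc16a3*, 1 time in that of *Slc2a1* and not in that of *Slc9a3r1*. By contrast, the windows of *Slc8a3* and *Slc22a18*, also higher in the mutants, hold none, and a window of *Slc20a1*, which was not altered, holds them. They are common: 16.7% of the 32536 promoters of this length in the RefSeq table hold them, as do 21.8% of the 179 promoters found for 131 members. CAGAC is the core that SMAD proteins bind and is not in capitals here. It occurred 1 time each in the windows of *Slc16a3* and *Slc2a1* and not in that of *Slc9a3r1*, and is held by 42.2% of all promoters. TATAAA is held by 12.3% and TGATGNAA by 3.4%. A match of letters is a description of the sequence only, and no binding was measured.

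Amino acid transporters formed the largest group after the mitochondrial carriers, and the altered members were split between directions. Of 26 transporters, *Slc7a6os* left out, 2 were altered higher and 2 lower, where 2.12% and 3.65% of all genes were so. The median log2 change of these transporters was -0.12. *Slc7a2* (ENSMUSG00000031596.15, chromosome 8 from 40862396 to 40922308, GRCm38) encodes a carrier of the cationic amino acids arginine, lysine and ornithine. By library, the log2 values were 3.43, 3.42, 3.40 and 3.47 in the control libraries 49 to 52 and 4.50, 4.25, 4.36 and 4.96 in the mutant libraries 53 to 56. Every mutant value lay above every control value, and the controls were almost level. The gene was 2.12-fold higher in the mutants (log2 fold change 1.09, standard error 0.20; limma-trend adjusted p = 0.0168; exact permutation p = 0.0286, which is the lowest value possible with 70 arrangements), on between 100 and 422 reads per library.

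*Slc6a6* (ENSMUSG00000030096.8, chromosome 6 from 91684053 to 91759066) encodes the taurine transporter. The libraries gave log2 values of 7.47, 7.79, 8.17 and 7.66 in control and 6.49, 7.22, 6.66 and 6.82 in mutant libraries, again without overlap. It fell to 0.509 of the control level (log2 fold change -0.97, standard error 0.19; limma-trend adjusted p = 0.0257), and with at least 800 reads in every library it was among the better measured of the altered members.

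The light chains that pair with the heavy chain *Slc3a2* to exchange amino acids differed from each other. *Slc7a5*, which carries large neutral amino acids such as leucine, had log2 values of 3.73, 3.95, 3.66 and 3.87 in control and 4.53, 3.66, 4.63 and 5.03 in mutant libraries, so that 1 mutant library, 54, lay among the controls (log2 fold change 0.66, limma-trend unadjusted p = 0.0229, adjusted p = 0.412). Its unadjusted limma-trend p was 0.0715 without the library labelled Tgfbr2cko 56, 0.0582 without 55 and 0.0546 without 51. *Slc7a7*, which carries cationic amino acids outward, had 5.21, 5.37, 5.70 and 5.71 in control and 4.93, 5.11, 5.12 and 4.57 in mutant libraries. *Slc7a8*, a carrier of neutral amino acids, had 6.85, 6.48, 7.02 and 6.63 in control and 6.37, 6.42, 6.00 and 6.33 in mutant libraries. Both were lower in the mutants without overlap, by -0.57 and -0.46 on the log2 scale, which is under 1.5-fold, with limma-trend adjusted p of 0.236 and 0.288. *Slc3a2* itself had a log2 change of -0.19 (limma-trend adjusted p = 0.928). *Slc7a7* and *Slc7a8* are named here after their values were seen, as are *Slc4a7*, *Slc8b1* and *Slc2a12* further on.

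*Slc38a11*, of the sodium-coupled neutral amino acid transporter family, was altered lower at 0.663 of the control level (log2 fold change -0.59, limma-trend unadjusted p = 0.0454, adjusted p = 0.574). The library labelled Tgfbr2cko 56 was lowest, at 4.74, and the other mutants had 5.66, 6.03 and 5.87 against 6.15, 5.62, 6.48 and 6.42 in the controls. Without library 56 the log2 change was -0.31 and the unadjusted limma-trend p 0.141, and p was also above 0.05 without 49, 51 or 52. Of the list of amino acid transporters linked to ATF4, 6 passed the level, and 1 of them, *Slc7a5*, was altered. The log2 changes of the other 5 were -0.32 for *Slc1a4*, -0.08 for *Slc1a5*, 0.01 for *Slc38a2*, -0.16 for *Slc7a1* and -0.19 for *Slc3a2*, and none had an unadjusted p under 0.05 in limma-trend. The value of *Slc1a4* rested on library 54, at 2.68 against 3.65 to 4.35 in the other mutants, and was -0.02 without it.

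The sodium-dependent phosphate transporters *Slc20a1* (PiT1) and *Slc20a2* (PiT2) were expressed at very unequal levels. Per kilobase of exon, *Slc20a2* had the highest level of all 172 members, 368 CPM, and it ranked 87th of 12144 genes, whereas *Slc20a1* had 2.2 CPM, so that the ratio between them was 169. *Slc20a2* alone took between 12.99% and 20.7% of all reads on members, which together took between 1.19% and 1.46% of the reads of a library. The level was used to choose the members, so it is a description without a test.

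Neither phosphate transporter was altered. *Slc20a2* (ENSMUSG00000037656.9, chromosome 8 from 22476788 to 22569612) had log2 values of 10.86, 11.24, 11.36 and 11.16 in control and 11.14, 11.35, 11.56 and 10.60 in mutant libraries, with both the highest and the lowest value in mutant libraries. Its log2 change was 0.01 with a standard error of 0.25 (limma-trend adjusted p = 0.998), on between 18223 and 32143 reads. *Slc20a1* (ENSMUSG00000027397.14, chromosome 2 from 129198764 to 129211616) had 3.88, 3.45, 3.64 and 3.10 in control and 3.64, 3.20, 3.44 and 4.50 in mutant libraries, where the value of 4.50 belongs to the library rich in enamel transcripts. Its log2 change was 0.18 with a standard error of 0.28 (limma-trend adjusted p = 0.995), and -0.09 without that library.

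**Figure D2:**
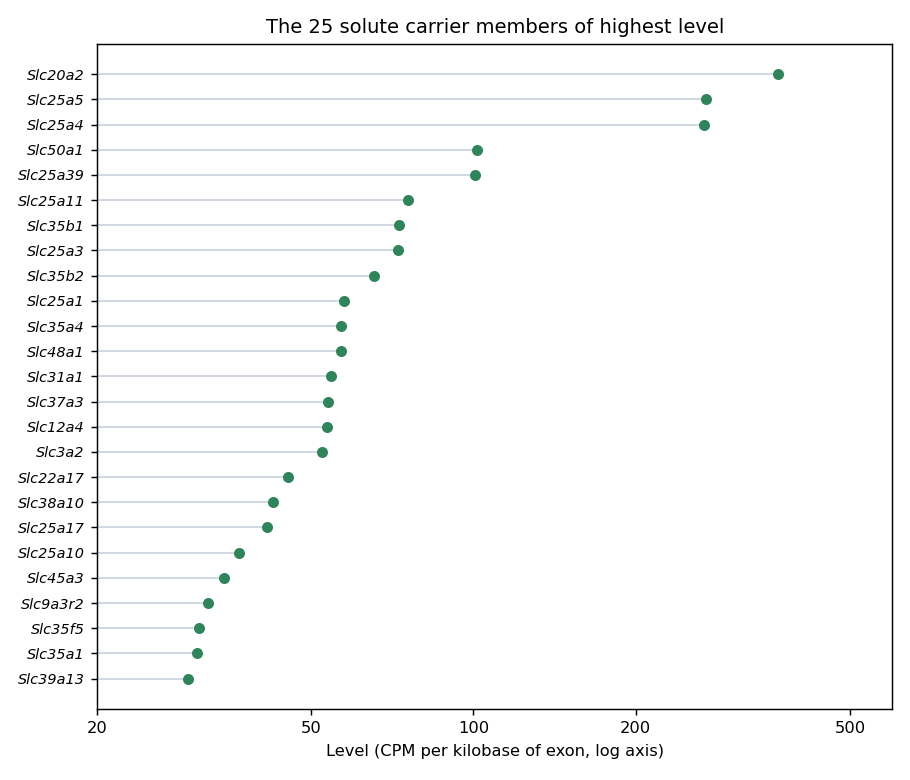
Level of the 25 members with the highest level, in CPM per kilobase of exon on a log axis, from the mean log2 value over all 8 libraries. *Slc20a2* lies at 368, followed by the mitochondrial carriers *Slc25a5* at 270 and *Slc25a4* at 268, and 5 members exceed 100.

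After *Slc20a2* came the ADP/ATP carriers *Slc25a5* and *Slc25a4* at 270 and 268 CPM per kilobase, the sugar carrier *Slc50a1* at 102 and the mitochondrial glutathione carrier *Slc25a39* at 101. The ADP/ATP carriers have near-identical copies elsewhere in the genome, so their counts are uncertain. The median member had 7.71 CPM per kilobase, 70 members exceeded 10 and 24 exceeded 30, so the levels were very uneven. Just inside the level of 3 were *Slc2a3* at 3.01, *Slc25a27* at 3.11 and *Slc22a18* at 3.13 on the log2 scale. Just outside were *Slc38a3* at 2.86, *Slc35g2* at 2.94 and *Slc25a29* at 2.95.

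Exchangers of sodium for calcium and protons, with the scaffolds named after them, held the largest rise and the largest fall of the members without overlap. *Slc8a3* (ENSMUSG00000079055.10, chromosome 12 from 81197915 to 81333180) encodes the sodium/calcium exchanger NCX3 of the plasma membrane. Single libraries had log2 values of 4.11, 4.17, 5.29 and 5.50 in control and 5.66, 6.63, 6.57 and 5.61 in mutant libraries, so the groups did not overlap but the highest control lay only just under the lowest mutant. It was 2.55-fold higher in the mutants (log2 fold change 1.35, standard error 0.34; limma-trend unadjusted p = 0.00151, adjusted p = 0.0959), and the controls themselves were spread over more than 1 log2 unit. *Slc8b1*, the exchanger that lets calcium out of mitochondria, had 3.30, 3.72, 4.05 and 3.55 in control and 3.25, 3.29, 3.08 and 2.82 in mutant libraries (log2 fold change -0.54, limma-trend unadjusted p = 0.0304, adjusted p = 0.469).

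*Slc9a3r1* (ENSMUSG00000020733.3, chromosome 11 from 115163341 to 115181181) encodes NHERF1, a PDZ scaffold that holds sodium/proton exchangers and phosphate transporters at the membrane. Its log2 values were 5.72, 4.998, 5.98 and 6.17 in control and 4.08, 4.67, 4.71 and 3.70 in mutant libraries. All mutants lay below all controls, and at 0.372 of the control level it had the largest fall of any member (log2 fold change -1.43, standard error 0.28; limma-trend adjusted p = 0.0259). Its relative *Slc9a3r2* had a log2 change of -0.27 (limma-trend adjusted p = 0.772). The sodium/proton exchangers *Slc9a8* and *Slc9a9* had log2 changes of -0.04 and -0.43, and neither was altered.

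None of the 8 members that carry bicarbonate, sulfate and other anions, *Slc4a1ap* left out, was altered, but 7 of 8 changes lay above 0 and the median was 0.20. The sodium bicarbonate cotransporter *Slc4a4* had log2 values of 5.22, 4.51, 4.99 and 4.31 in control and 5.38, 5.02, 5.04 and 5.87 in mutant libraries (log2 fold change 0.57, limma-trend unadjusted p = 0.0338, adjusted p = 0.499). Its relative *Slc4a7* had 3.24, 2.99, 3.37 and 3.62 in control and 3.62, 3.85, 3.96 and 3.65 in mutant libraries, which is 0.47 higher with the genotypes only just apart (limma-trend unadjusted p = 0.0405, adjusted p = 0.548). The anion exchanger *Slc4a2* had a log2 change of 0.15, and the sulfate transporter *Slc26a2*, needed for sulfated cartilage proteoglycans, of 0.20, with limma-trend unadjusted p of 0.507 and 0.413.

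**Figure D3:**
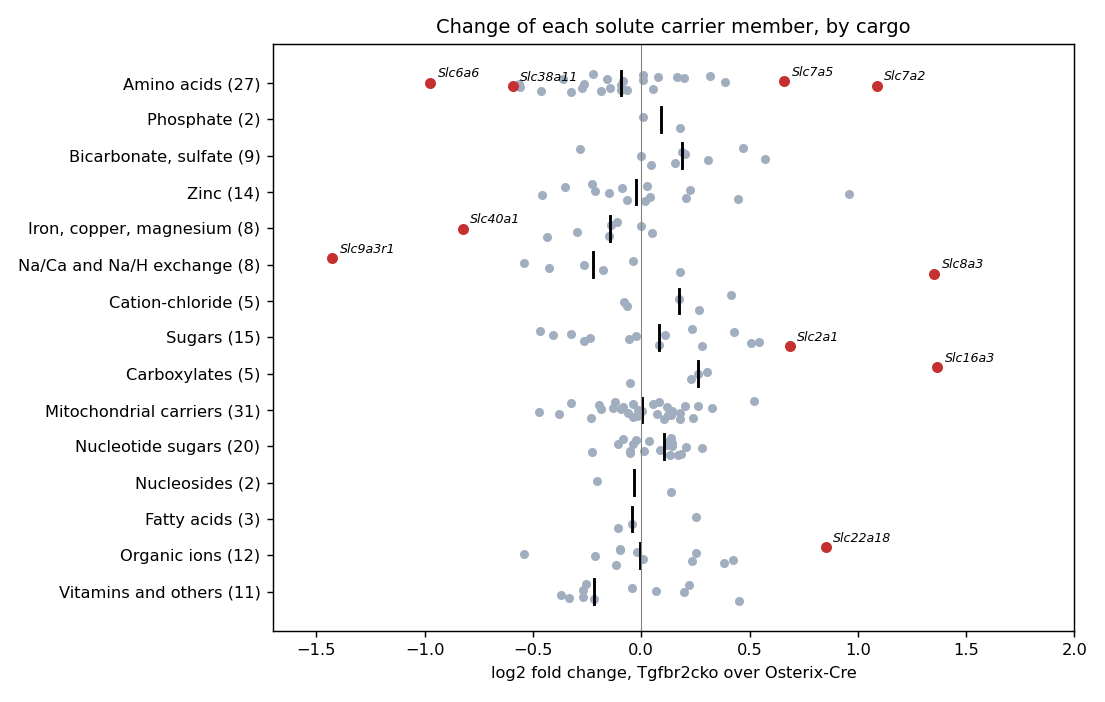
Log2 fold change of each of the 172 members, *Tgfbr2cko* over Osterix-Cre, by what the protein carries; each dot is a gene, red dots are the 10 altered members, black bars are group medians and numbers in brackets are members per group, with the 4 members that are no carriers placed by their family number. The red dots lie in 6 of the groups with both directions among the amino acid transporters and the sodium/calcium and sodium/proton exchangers with their scaffolds, and the 31 mitochondrial and 20 nucleotide sugar carriers hold none.

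Among the 14 zinc transporters none was altered at 1.5-fold. *Slc39a13* (ENSMUSG00000002105.15, chromosome 2 from 91061791 to 91070417) encodes ZIP13, which is needed for normal connective tissue and dentin. By library, the log2 values were 7.47, 7.39, 7.37 and 7.36 in control and 6.91, 6.99, 6.92 and 6.94 in mutant libraries, with SDs of 0.05 and 0.04. Every mutant was lower, at 0.728 of the control level (log2 fold change -0.46, standard error 0.12; limma-trend unadjusted p = 0.00232, adjusted p = 0.120), and over the 18 alternative settings the change stayed between -0.48 and -0.43.

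*Slc39a8*, a carrier of zinc and manganese, had the largest upward change of the zinc group and was not altered. The libraries gave log2 values of 4.10, 3.98, 4.27 and 4.09 in control and 3.84, 4.51, 5.17 and 6.75 in mutant libraries, and the value of 6.75 was that of the library rich in enamel transcripts. The log2 change was 0.96 (limma-trend unadjusted p = 0.0525) with that library and 0.40 (unadjusted p = 0.153) without it. It met the limits for altered in 5 other settings. Its limma-trend change was 0.70 with library weights (unadjusted p = 0.0394), 1.37 without library 53 (unadjusted p = 0.00300) and 1.14 without 54 (unadjusted p = 0.0382). With libraries of the same title number averaged it was 0.94 (limma-trend unadjusted p = 0.000785, adjusted p = 0.0539), and with the title number as a block 0.97 (limma-trend unadjusted p = 0.0451). *Slc39a14*, which carries zinc, manganese and iron, had a log2 change of -0.23 (limma-trend adjusted p = 0.930).

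*Slc40a1* (ENSMUSG00000025993.10, chromosome 1 from 45908068 to 45926523) encodes ferroportin, which exports iron from cells and is abundant in macrophages. Single libraries had log2 values of 6.71, 7.32, 7.41 and 6.99 in control and 6.62, 6.58, 6.33 and 5.61 in mutant libraries. The gene was altered lower, at 0.565 of the control level, with no overlap (log2 fold change -0.82, standard error 0.23; limma-trend unadjusted p = 0.00307, adjusted p = 0.140). The 5 macrophage markers *Adgre1*, *C1qa*, *Cd68*, *Csf1r* and *Ptprc* summed to between 425 and 577 CPM in control and between 245 and 526 CPM in mutant libraries, with the lowest sum in library 56. The sums overlap. Of these markers *Adgre1*, *Cd68* and *Ptprc* were lower with an unadjusted limma-trend p of 0.0255, 0.0434 and 0.000793, while *C1qa* and *Csf1r* had p of 0.509 and 0.237. The 5 endothelial markers summed to between 207 and 294 CPM in control and between 189 and 258 CPM in mutant libraries, all 5 with a log2 change below 0, and *Emcn* alone had an unadjusted limma-trend p under 0.05 (0.0108). The part of either cell type in the values of *Slc40a1*, or of *Slc7a7*, which macrophages also express, was not tested. Without library 56 the log2 change of *Slc40a1* was -0.60.

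No other carrier of the iron list was altered. *Slc11a2*, which takes up iron, had a log2 change of -0.0022, and *Slc25a37*, which brings iron into mitochondria, a change of 0.18 (limma-trend adjusted p = 0.962). The mitochondrial glycine carrier *Slc25a38*, needed for heme synthesis, had log2 values of 4.77, 4.57, 5.30 and 5.20 in control and 5.24, 5.76, 5.60 and 5.32 in mutant libraries (log2 fold change 0.52, limma-trend unadjusted p = 0.0204, adjusted p = 0.388). The 5 erythroid genes in the table summed to between 655 and 1496 CPM in control and between 565 and 2541 CPM in mutant libraries. In all, 7 of the 8 carriers of iron, copper and magnesium had a change below 0, with a median of -0.14, and *Slc40a1* was the one that was altered.

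Carriers of glucose and lactate held 2 of the 6 higher members. *Slc16a3* (ENSMUSG00000025161.16, chromosome 11 from 120948480 to 120960868), whose promoter is shown above, encodes MCT4, the monocarboxylate transporter through which glycolytic cells release lactate. Its log2 values were 2.53, 2.69, 3.37 and 3.35 in control and 4.67, 4.75, 4.65 and 3.34 in mutant libraries, so 3 mutants lay far above all controls and library 56 lay among them. It was 2.58-fold higher in the mutants, the largest rise of any member (log2 fold change 1.37, standard error 0.32; limma-trend unadjusted p = 0.000980, adjusted p = 0.0731), on between 56 and 331 reads. The exact permutation test gave p = 0.0857 (4 against 4 libraries), since the groups overlap. Without library 56 the log2 change was 1.70.

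*Slc2a1* (ENSMUSG00000028645.11, chromosome 4 from 119108711 to 119137983) encodes the glucose transporter GLUT1. By library, the log2 values were 3.91, 4.63, 4.41 and 3.68 in control and 4.62, 4.62, 4.97 and 5.17 in mutant libraries, so control 50 lay level with the lower mutants. It was 1.61-fold higher (log2 fold change 0.68, standard error 0.23; limma-trend unadjusted p = 0.0107, adjusted p = 0.275). *Slc2a12*, another glucose transporter, had 5.13, 5.49, 4.99 and 5.26 in control and 6.10, 6.21, 5.78 and 4.96 in mutant libraries (log2 fold change 0.54, limma-trend unadjusted p = 0.0434, adjusted p = 0.564). Without library 56, the only mutant below every control, its log2 change was 0.81 (limma-trend unadjusted p = 0.000342, adjusted p = 0.0324), and the unadjusted p was over 0.05 without each of 6 of the other 7 libraries. The neuronal glucose transporter *Slc2a3* had a log2 change of -0.24 and the lactate transporter *Slc16a1* of 0.30, with limma-trend adjusted p of 0.980 and 0.707. Thus 2 of the 4 carriers of the glucose and lactate list that passed the level were altered, where 5.77% of all genes were. The list is short and was chosen with earlier results of these data known, so this count cannot show an excess. The list's *Slc16a7*, below the level, had a log2 change of -0.66 (limma-trend unadjusted p = 0.0702). The citrate transporter *Slc13a5*, whose loss causes enamel and bone defects, had a log2 change of -0.05 (limma-trend adjusted p = 0.998). Of the 14 members of the list of tooth and bone transporters that passed the level, *Slc8a3* was altered and the other 13 were not.

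**Figure D4:**
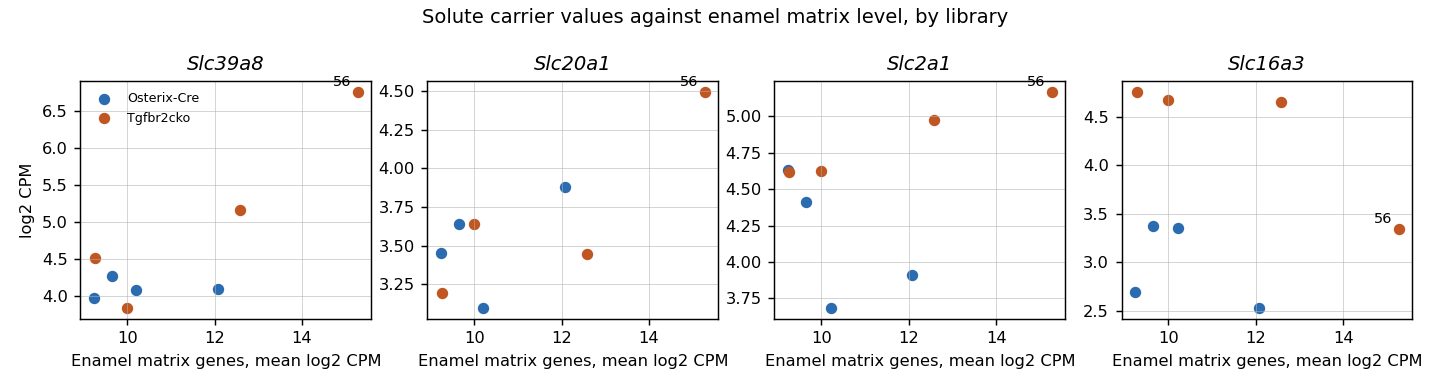
Log2 CPM of *Slc39a8*, *Slc20a1*, *Slc2a1* and *Slc16a3* in each library (vertical axes) against the mean log2 CPM of *Amelx*, *Ambn* and *Enam* (horizontal axes), with Osterix-Cre in blue and *Tgfbr2cko* in orange. The library labelled 56 lies far to the right in each panel, at the top for *Slc39a8* (6.75), *Slc20a1* (4.50) and *Slc2a1* (5.17) and among the controls for *Slc16a3* (3.34).

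Enamel matrix genes had a mean log2 value of 15.28 in library 56 and between 9.23 and 12.58 in the other 7. This library had the lowest of the 8 values in 60 of the 172 members and the highest in 21, and control 49 had the lowest in 37. Its own enamel transcripts take up a larger part of its reads, and their part in these low values was not tested. The plot of transporter values against enamel matrix level shows that *Slc20a1* was highest in that library, whereas *Slc39a8* and *Slc2a1* were also high in library 55, at 5.17 and 4.97. Control 49 had nearly the enamel matrix level of library 55, 12.08 against 12.58, but values of 4.10 for *Slc39a8* and 3.91 for *Slc2a1*, and its *Slc20a1* value of 3.88 was the next highest after that of library 56; the part of enamel tissue in these values was not tested. Leaving out library 56 also turned the log2 changes of *Slc26a2*, *Slc4a2* and *Slc2a3* to -0.04, -0.06 and 0.05, and gave 0.59 for *Slc12a7* (limma-trend unadjusted p = 0.00392).

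Mitochondrial carriers, of family 25, were the largest group, and their changes were small. None of the 31 was altered, the median log2 change was 0.00, and the changes ran from -0.47 for *Slc25a23*, a calcium-regulated carrier of ATP and phosphate, to 0.52 for *Slc25a38*. *Slc25a23* had an unadjusted limma-trend p of 0.0365 (adjusted p = 0.519). The abundant carriers *Slc25a4*, *Slc25a5* and *Slc25a3*, the last of which carries phosphate into mitochondria, had log2 changes of 0.12, -0.12 and -0.02.

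None of the 20 nucleotide sugar carriers of family 35, which supply the Golgi apparatus with building blocks for glycans, had an unadjusted p under 0.05 in limma-trend. Their changes ran from -0.23 for *Slc35c2* to 0.28 for *Slc35d2*, with a median of 0.10. Without library 56 the change of *Slc35d2* was 0.55 (limma-trend unadjusted p = 0.0305). The most abundant per kilobase was *Slc35b1*, at 72.8 CPM, with a log2 change of 0.18. *Slc35d1*, which supplies chondroitin sulfate synthesis, had a log2 change of 0.03.

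Of the 12 carriers of organic ions and related molecules, 1 was altered. *Slc22a18* (ENSMUSG00000000154.16, chromosome 7 from 143473736 to 143499334), an imprinted gene, had log2 values of 2.58, 2.91, 2.23 and 3.11 in control and 3.58, 3.82, 3.73 and 3.09 in mutant libraries. Library 56 again lay within the control range, and the gene was 1.80-fold higher in the mutants (log2 fold change 0.85, standard error 0.26; limma-trend unadjusted p = 0.00560, adjusted p = 0.197), on as few as 44 reads. *Slc22a21*, a carnitine transporter, was the lowest of the group at -0.54 (limma-trend unadjusted p = 0.0356, adjusted p = 0.515).

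Vitamin carriers and the remaining groups held no altered member. The folate carrier *Slc19a1* had log2 values of 5.04, 5.31, 5.34 and 4.76 in control and 5.80, 5.57, 5.68 and 5.21 in mutant libraries (log2 fold change 0.45, limma-trend unadjusted p = 0.0281, adjusted p = 0.452). The heme transporter *Slc48a1* had the highest level per kilobase of the 11 members of its group, 56.7 CPM, and a log2 change of -0.26. Among the 5 cation-chloride cotransporters the changes ran from -0.08 for *Slc12a9* to 0.41 for *Slc12a7*, and *Slc12a2*, which brings chloride into cells, had a log2 change of 0.26, which was 0.01 without library 56. The 3 fatty acid and the 2 nucleoside carriers had changes between -0.20 and 0.25.

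The precision of single members differed with depth and spread. The fewest reads of any member in any library were 44, and the median member had at least 281 reads in each library. Counting error weighs more in members of few reads, such as *Slc22a18*, *Slc16a3* and *Slc7a2*, with as few as 44, 56 and 100 in a library. The near-level controls of *Slc7a2* therefore say little about its precision. On the log2 scale the median SD was 0.23 for control and 0.28 for mutant libraries, and 103 members had the larger SD in the mutants; without library 56 the median SD in the mutants was 0.20. In 10 members at least 10% of the exon length overlaps another gene, and since the sources used here do not give the strand setting of the counting, reads of these pairs cannot be told apart. Of the members with values given here this applies to *Slc4a2*, which overlaps *Fastk* on the opposite strand.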

How the data were processed

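Low-input RNA-Seq libraries of *Osterix-Cre* and *Tgfbr2cko* DP were processed by the authors, per the labels, with fastp 0.21.0, HISAT2 2.1.0 and featureCounts of Subread 2.0.1 on GRCm38.p5. The paper names GENCODE M14, the CLEAR workflow, which keeps reliably quantified genes, and voom. The deposited values are therefore log2 CPM, with 0.5 added to each count and the library total as the scale. Undoing that formula gave whole reads for all 97184 values, to within 1.42e-05 of a read, so the reads behind each value are known; amplified reads without molecular identifiers are not independent molecules, and depth covers counting error only. The strand setting is not given in the sources used here.

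Symbols, positions and exon lengths came from GENCODE M21 (GRCm38), in which 12144 of 12148 identifiers matched. The genotypes were compared on the deposited values with limma 3.58.1 in R 4.3.3, in 1 fit over all 8 libraries and 12148 genes, two-sided, with an intensity trend and Benjamini-Hochberg adjustment over all genes. An exact permutation test (two-sided, 70 arrangements of the libraries) was added for single genes. Level per kilobase is the mean log2 value, turned back to CPM, over the exon length. The script was tested on simulated data.

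The members and lists were chosen with earlier results of these data known. Named are *Slc20a1* and *Slc20a2*, altered members, members of the fixed lists that passed the level, the extremes of each cargo group in change and level, and the 3 genes on each side of the level; members with an unadjusted p under 0.05 were added after their values were seen. *Slc8a3* and *Slc9a3r1* are also named by the study. The alternatives were no trend, library weights, voom weights, 2 added to each count, quantile normalization, median centring, genes with a mean of at least 3 alone, libraries of 1 title number averaged, an enamel matrix covariate, each library left out, other level limits and a 2-fold limit. The set without *Slc4a1ap* and the title number as a block were added after seeing the data. Promoters came from RefSeq (GRCm38.p6). *Slc24a4*, *Slc34a2*, *Slc8a1*, *Slc2a4*, *Slc38a5*, *Slc4a1* and *Slc7a3* were not analysed here, and some members are not reported here by name but stay in all counts. The plots were made with matplotlib 3.10.9 (Python 3.11.15).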

Additional observations from a re-analysis of the deposited data

Results flagged for a closer look

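Within each genotype, 4 single values among the named genes lay so far from the other 3 that Dixon's ratio of the gap to the range exceeded 0.829, out of 134 groups of 4 examined; chance alone gives about 1 in 20. *Slc16a3* was lowest in the library labelled Tgfbr2cko 56, at 3.34 against 4.65 to 4.75 in the other mutants. *Slc12a4*, a potassium chloride cotransporter, was lowest in Osterix-Cre 49, at 7.44 against 7.82 to 7.87 in the other controls. *Slc16a1*, a lactate transporter, was also lowest in that library, at 5.03 against 5.29 to 5.35. *Slc37a2*, a sugar phosphate exchanger, was highest in Osterix-Cre 52, at 4.08 against 3.79 to 3.83.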

How the results depend on the processing

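The count of 10 altered members was 4 at a 2-fold limit, 2.33% of members and 2.11% of all genes, and ran from 10 to 20 when 1 library was left out, 5.81% to 11.6% of members and 5.15% to 7.80% of all genes. Of the 6 higher members 3 were left at 2-fold and 3 at a mean log2 value of at least 4, and the leave-one-out range was 6 to 11. Of the 4 lower members 1 was left at 2-fold and 2 with the enamel matrix covariate, and the range was 3 to 9. With adjusted p under 0.05 there were 3 members (1.74%, against 0.947% of all genes), 1 without the intensity trend, 7 with library weights, and 0 to 5 when 1 library was left out. For these other settings, and for the ranges by direction, the shares of all genes are not given here. Such shifts can thus not be read as particular to the members. The count of members without overlap rose from 10 to 18 both with quantile normalization and with median centring, where 6.35% and 6.40% of all genes did not overlap. It ran from 13 to 22 when 1 library was left out, partly because fewer libraries overlap less often. The share of all genes without overlap is not given here for those fits, so that range says nothing particular to the members. The median log2 change of the members ran from -0.04 to 0.06 when 1 library was left out.

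All 10 altered members kept their direction in all 18 settings. *Slc7a2*, *Slc6a6*, *Slc9a3r1*, *Slc16a3*, *Slc8a3*, *Slc40a1*, *Slc22a18* and *Slc2a1* had an unadjusted limma p under 0.05 in all of them, *Slc7a5* in 14 and *Slc38a11* in 11. The 1.5-fold limit was not always met. The smallest log2 changes were 0.53 for *Slc2a1*, -0.56 for *Slc40a1*, 0.45 for *Slc7a5* and -0.31 for *Slc38a11*. With library weights, with the enamel matrix covariate and without library 56, 7 of the 10 stayed altered. The adjusted p was under 0.05 in 17 settings for *Slc7a2*, 12 for *Slc6a6*, 13 for *Slc9a3r1*, 3 for *Slc16a3* (0.00331 without library 56), 2 for *Slc40a1*, 1 for *Slc22a18* and 1 for *Slc8a3*, and in 0 for the other 3. Of the 11 members with an unadjusted p under 0.05 that changed less than 1.5-fold, *Slc39a13* and *Slc7a7* kept it without each library in turn and the other 9 did not.

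Members whose change lay near 0 changed sign, none of them altered. With library weights the log2 changes were 0.011 for *Slc12a9*, 0.031 for *Slc1a5*, -0.052 for *Slc20a1* and -0.060 for *Slc38a2*. With the enamel matrix covariate they were 0.020 for *Slc12a9*, -0.078 for *Slc20a1* and -0.018 for *Slc4a2*. Quantile normalization gave 0.0046 for *Slc11a2* and -0.011 for *Slc20a2*, voom weights 0.0038 for *Slc11a2*, the title number as a block 0.0047 for *Slc11a2*, and averaged title numbers -0.028 for *Slc20a2* and -0.021 for *Slc31a1*. When 1 library was left out, the ranges were -0.13 to 0.078 for *Slc11a2*, -0.21 to 0.11 for *Slc12a9*, -0.30 to 0.15 for *Slc13a5*, -0.29 to 0.082 for *Slc1a5*, -0.091 to 0.34 for *Slc20a1*, -0.13 to 0.20 for *Slc20a2*, -0.043 to 0.32 for *Slc26a2*, -0.37 to 0.051 for *Slc2a3*, -0.067 to 0.14 for *Slc31a1*, -0.20 to 0.28 for *Slc35d1*, -0.039 to 0.065 for *Slc38a2* and -0.060 to 0.38 for *Slc4a2*. The cause of these shifts was not tested. The genotypes share no library number and only 1 title number, 2, whose meaning is not given in the sources used here. The title number as a replicate block was added after seeing the data and entered as 1 correlation over all genes (-0.050). In that fit 11 members were altered (6.40%, with 5.97% of all genes), the same 10 and *Slc39a8*. There 3 members had an adjusted p under 0.05, for which the share of all genes is not given here. A block with a term for each title number would compare genotypes within number 2 alone and was not run.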

Other observations

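Among the 27 solute carrier genes below the level of 3, 2 had an unadjusted limma p under 0.05: *Slc19a3*, a thiamine transporter, with a log2 change of -1.10 (limma adjusted p = 0.323), and *Slc35g2*, with -0.59 (adjusted p = 0.546). *Slc38a3*, a glutamine transporter, had a log2 change of 1.33 (limma adjusted p = 0.614), and its value of 5.84 in the library labelled Tgfbr2cko 56 was the highest of the 8.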
